A study of Mus musculus with 550 samples.

Results

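The 10 genes described here encode parts of the neuronal cytoskeleton and a cell adhesion molecule. They are the beta-tubulins Tubb2b, Tubb2a and Tubb3, the neurofilament subunits Nefl and Nefm, the microtubule regulators Stmn2, Map2 and Dcx, the motor Kif1a and the adhesion molecule Ncam1. They make up 10 of the 55228 gene names in the count table, and all 10 were found in it. They were chosen by name with earlier results of these data in view, in which Tubb2b and Nefl stood among the lowest genes of WT day 9 against day 3. Their levels, and the difference of Tubb2b and Nefl between the days above all, are therefore a description and support nothing further.

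Embryoid bodies (EBs), aggregates in which stem cells differentiate after withdrawal of leukemia inhibitory factor, were grown from E14 mouse embryonic stem cells of strain 129/Ola. The cells were wild type (WT), Dnmt3a -/- (3AKO) or Dnmt3b -/- (3BKO), so that either mutant lacked a de novo DNA methyltransferase. Single cells were sorted at day 3 and day 9 and profiled with a modified Smart-seq2 protocol, which reads whole transcripts without molecular identifiers. The methods speak of 2 independent clones of each mutant and of pooled EBs, but the labels name no clone or culture, and every group of 1 genotype at 1 day (6 in all) therefore counts as 1 sample. No test over cells was made, and no difference below has a replicate check.

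Of 550 cells, 486 were kept, with 67 to 89 cells in a group and 21 to 61 in each of the 12 libraries, a library being the cells of 1 group and 1 library batch. A kept cell held 54720 to 1450202 assigned reads, with a median of 263901.5, and the summed reads of a group were 19713905 to 34821361. At day 9 the deleted genes went with the labels, Dnmt3a being at 25.2 CPM (reads of a gene scaled to the library total) in 3AKO and Dnmt3b at 16.4 CPM in 3BKO. At day 3 Dnmt3a did not in batch 2. It was at 25.8 CPM in the batch 1 library labelled 3AKO and at 12.8 CPM in the batch 2 library labelled 3BKO, both on plate 211, but at 587 and 335 CPM in the batch 1 library labelled 3BKO and the batch 2 library labelled 3AKO, both on plate 210. Dnmt3b was less clear at day 3, at 167 and 85.1 CPM in these plate 210 libraries, 261 and 185 CPM in those of plate 211 and 600.1 and 523 CPM in WT, for batch 1 and batch 2. Day 3 values of the mutant labels are therefore given mainly by library, and where they are pooled they describe the label and are assigned to no genotype. At day 9 each genotype filled a plate of its own, so plate and genotype cannot be told apart. The batch 2 library of 3BKO at day 9 stood apart in depth, with a median of 692321 reads in its 21 cells against 211599 to 374958 in the other libraries, and results that rest on it are given with batch 1 beside it.

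Microtubules are polymers of alpha- and beta-tubulin, and neurons make some of their beta-tubulin from genes that most other cells use little. Tubb3 is the beta-tubulin stained as TUJ1 to mark young neurons, and Tubb2a and Tubb2b are a pair of closely related genes of the developing brain. Neurofilaments are the intermediate filaments of axons, built on the light subunit Nefl with the medium subunit Nefm. Stmn2 binds tubulin dimers and keeps microtubule ends dynamic in growth cones, Map2 lies along dendritic microtubules, Dcx stabilises microtubules in migrating neurons, Kif1a carries synaptic vesicle precursors along axons, and Ncam1 joins neighbouring cells through its immunoglobulin domains. Early epiblast and ectoderm cells are not neurons, so reads of these genes in EBs need not come from neurons.

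The similarity within the tubulin pair limits what their counts can separate. Tubb2a (GRCm38, chromosome 13, 34074274 to 34078007) and Tubb2b (chromosome 13, 34126748 to 34130466) lie on the minus strand, 48740 bases apart. Their coding sequences have 1338 bases each and differ at 47 of them, an identity of 96.49%. Of all stretches of 75 bases, the read length, 43.23% in Tubb2a and 32.16% in Tubb2b were also found in the other gene or in the pseudogene Tubb2a-ps2. The authors dropped reads that mapped to more than 1 place, so both genes were counted mainly from the parts that differ. The last 90 coding bases, which include those of the acidic tail, are shown for the 3 members to make this closeness visible. The 3 bases at which Tubb2a and Tubb2b differ are in capitals. Read in frame, none of the 3 changes the encoded amino acid, so this stretch is the same in both proteins. The Tubb3 tail is shown as the distant relative, in lower case throughout.
Tubb2a: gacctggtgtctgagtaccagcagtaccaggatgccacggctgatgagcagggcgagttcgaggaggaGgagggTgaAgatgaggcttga
Tubb2b: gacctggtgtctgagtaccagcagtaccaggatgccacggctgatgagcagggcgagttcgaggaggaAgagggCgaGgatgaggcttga
Tubb3: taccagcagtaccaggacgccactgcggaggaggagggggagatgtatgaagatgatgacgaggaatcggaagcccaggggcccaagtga
None of the stretches of 75 bases in Tubb3 (chromosome 8, 123411424 to 123422015, plus strand) was found in another gene.

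Both neurofilament genes share bases as well. Nefl (chromosome 14, 68083863 to 68089095, plus strand) and Nefm (chromosome 14, 68082590 to 68124846, minus strand) have 1108 exon bases in common on opposite strands, 32.78% of the exon bases of Nefl and 19.16% of those of Nefm. The counting options that the methods name include none for strand, so reads from the shared stretch cannot be assigned to either gene. The other members were Stmn2 (chromosome 3, 8509360 to 8561606), Kif1a (chromosome 1, 93015464 to 93101951), Map2 (chromosome 1, 66175273 to 66442583), Dcx (chromosome X, 143855842 to 143933311) and Ncam1 (chromosome 9, 49502136 to 49798925). Of these, Map2 shared 124 exon bases with Gm10558 and Ncam1 shared 417 with Gm11149, in each case on the opposite strand.

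Levels of the members were compared per length. On the RPKM scale (reads per exon length and library total), Tubb3 was the highest member in all 6 groups, at 49.7 to 86.5 RPKM. Stmn2 had 26.6 to 47.9 RPKM and Tubb2a 6.14 to 16.04 RPKM. The length is that of all merged exons, 5602 bases for Stmn2 against 2073 in its longest coding transcript, while Tubb3 has 1868 in both. The order of Tubb3 and Stmn2 therefore depends on the length used. Tubb2b ran from 1.19 RPKM in 3BKO at day 9 to 60.2 RPKM in the day 3 group labelled 3AKO, the widest span of RPKM among the members with reads in every group. The levels of Nefl (0.612 to 7.08 RPKM), Kif1a (0.513 to 3.71 RPKM) and Ncam1 (1.14 to 4.49 RPKM) were lower. Nefm (0.0395 to 0.983 RPKM), Map2 (0 to 0.0814 RPKM) and Dcx (0 to 0.0497 RPKM) were the lowest members and rested on few cells. Over all 486 cells, Stmn2 had a read in 408, Tubb3 in 335 and Tubb2b in 258, whereas Nefm had one in 29, Map2 in 28 and Dcx in 2.

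**Figure D1:**
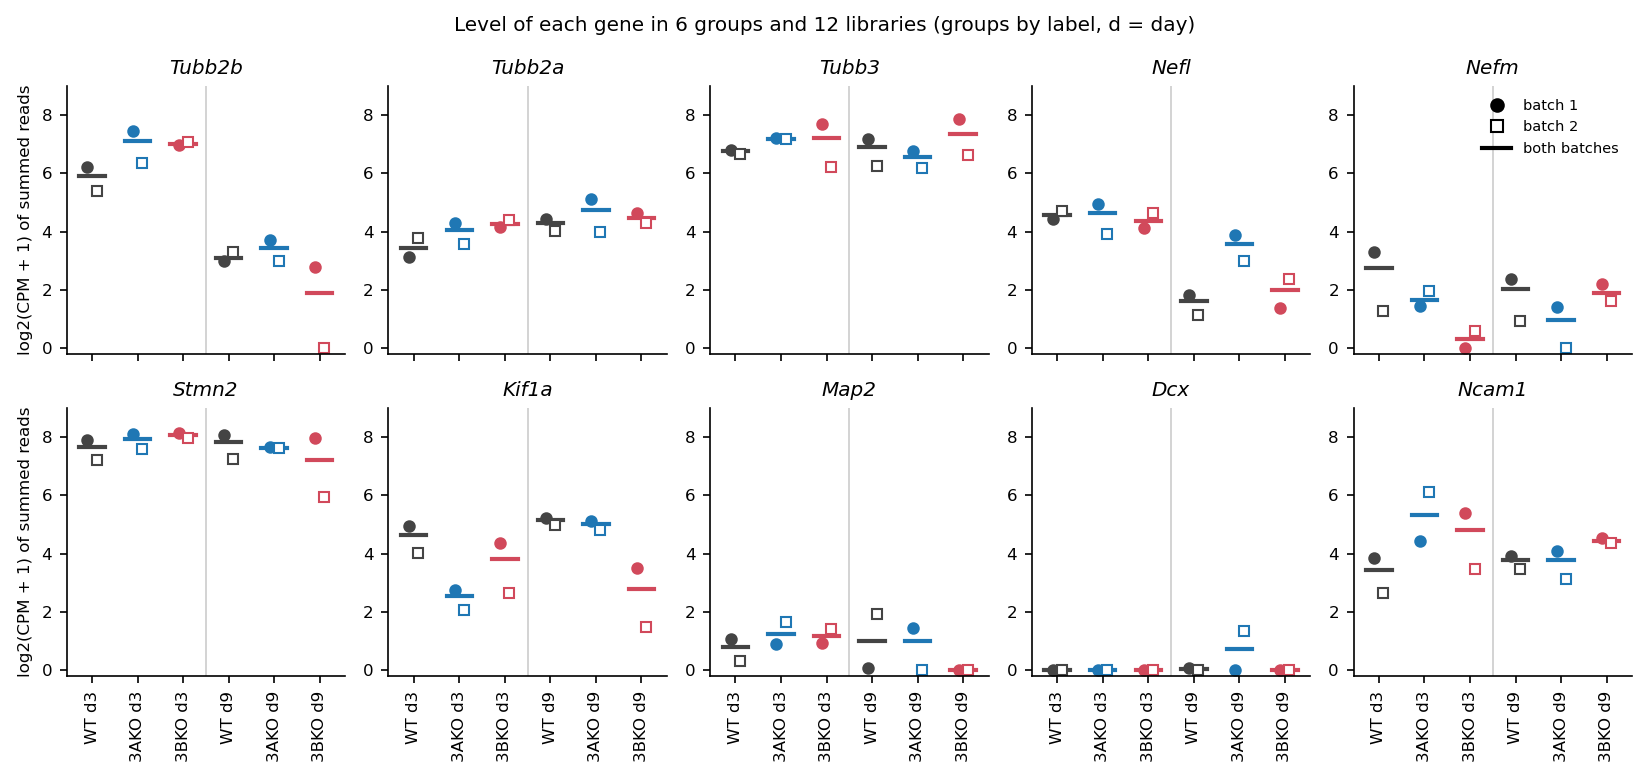
Level of each of the 10 genes as log2(CPM + 1) of summed reads (y axis) in the 6 groups by label (x axis, d = day); filled circles are batch 1, open squares batch 2 and bars both batches. Tubb2b and Nefl are lower in every day 9 library than in every day 3 library, Kif1a is low in both 3BKO day 9 libraries, and Dcx sits at 0 in 10 of 12 libraries.

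Tubb2b was lower at day 9 in every library than in any library of day 3. In WT it had 73.7 CPM in batch 1 and 40.9 CPM in batch 2 at day 3, and 6.95 and 8.78 CPM at day 9. In the libraries labelled 3AKO it had 174 and 80.8 CPM at day 3, and 12.04 and 6.97 CPM in 3AKO at day 9. In those labelled 3BKO it had 124 and 135 CPM at day 3, and 5.91 and 0 CPM in 3BKO at day 9. All 6 day 3 libraries therefore lay above all 6 day 9 libraries, whichever mutant label a day 3 library carried, as was the case for 1.28% of the 12627 genes compared in this way. The WT level was 7.86-fold lower at day 9 (6.87 to 9.02, exact 95% interval, as are all intervals here, which cover counting error only), a log2 ratio of -2.82, with -3.23 in batch 1 and -2.10 in batch 2. The 3BKO day 9 library at 0 reads was at least 47.6-fold lower than WT and 37.7-fold lower than 3AKO of the same batch, counted against a floor of 3 reads, while the batch 1 libraries of 3BKO and WT had a log2 ratio of -0.20. These bounds cover counting error only, since 54.3% of the WT batch 2 reads at day 9 came from 1 cell. In 3AKO batch 2 at day 9, 88.4% of the reads came from 3 cells. At day 9 the pooled levels of 3AKO (9.93 CPM) and WT (7.58 CPM) overlapped in their batch values.

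Tubb2b was lower in cells with a read as well as in summed reads. After every cell was thinned at random to 50000 reads, 69.6% of WT cells had a Tubb2b read at day 3 (58.2 to 79.5%) and 14.6% at day 9 (8.01 to 23.7%). The share was 19.3% in 3AKO (11.7 to 29.1%) and 5.97% in 3BKO (1.65 to 14.6%) at day 9. In the 4 day 3 libraries with a mutant label it was 72 to 96.6%. The median cell had 49.9 CPM of Tubb2b in WT at day 3 and 0 CPM in all 3 groups at day 9. In the batch 2 library of 3BKO at day 9, 0 of 21 cells had a read, with an exact upper limit of 16.1%. In the same batch the share was 24.1% in WT (10.3 to 43.5%) and 11.1% in 3AKO (2.35 to 29.2%), so the intervals overlapped.

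Tubb2a, the neighbour of Tubb2b, did not follow it. It had 7.73 and 12.8 CPM in WT at day 3, 20.6 and 15.2 CPM in WT at day 9, 33.7 and 14.7 CPM in 3AKO at day 9, and 24.1 and 18.5 CPM in 3BKO at day 9, for batch 1 and batch 2. The day 3 libraries with a mutant label held 10.9 to 19.9 CPM, so the days overlapped. The WT log2 ratio of day 9 to day 3 was 0.86, with 1.31 in batch 1 and 0.24 in batch 2, short of the size limit in batch 2. The makeup of the pair differed accordingly. Tubb2b held 69.2 to 86.992% of the summed RPKM of Tubb2a and Tubb2b in the 6 day 3 libraries and 0 to 28.8% in the 6 day 9 libraries. In WT the ratio of Tubb2b to Tubb2a RPKM was 4.23 at day 3 and 0.284 at day 9, and in 3BKO at day 9 it was 0.0912 over both batches and 0.172 in batch 1.

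**Figure D2:**
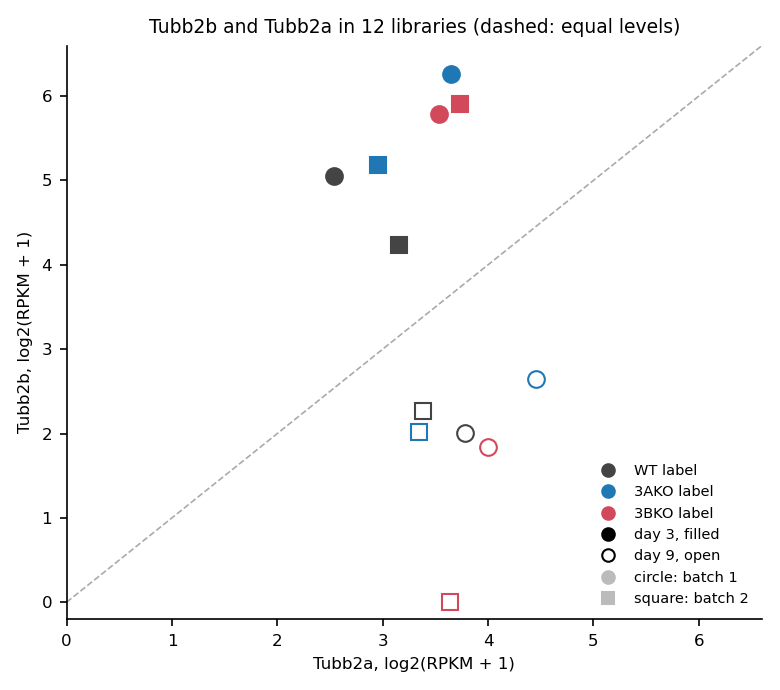
Tubb2b (y axis) against Tubb2a (x axis), both as log2(RPKM + 1), in the 12 libraries; filled symbols are day 3, open symbols day 9, circles batch 1, squares batch 2, and the dashed line marks equal levels. All 6 day 3 libraries lie above the line and all 6 day 9 libraries below it, with 3BKO batch 2 at 0 for Tubb2b.

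Tubb3 had reads in every library, and its library values overlapped between the days. Its lowest, median and highest library values were 73.3, 127 and 207 CPM at day 3, and 71.2, 103 and 234 CPM at day 9. At day 9 it had 143 and 75.96 CPM in WT, 108 and 71.2 CPM in 3AKO, and 234 and 98.9 CPM in 3BKO, for batch 1 and batch 2. 3BKO was thus the highest and 3AKO the lowest within each batch at day 9, while the values of the genotypes overlapped across batches. Relative to WT, 3BKO had a log2 ratio of 0.43 (0.71 in batch 1, 0.38 in batch 2) and 3AKO one of -0.37 (-0.40 and -0.09), all below the size limit of 1. Thinned cells with a Tubb3 read at day 9 made up 59.6% for WT (48.6 to 69.8%), against 53.4% for 3AKO (42.5 to 64.1%) and 64.2% for 3BKO (51.5 to 75.5%), with overlapping intervals. Within all beta-tubulin RPKM, Tubb3 made up 3.34 to 6.57% of a group, against 53.4 to 67.5% for Tubb5, the general beta-tubulin of dividing cells, and 22.8 to 33.2% for Tubb4b.

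Nefl, the neurofilament light subunit, was low at day 9 except in 3AKO. In WT it had 20.6 CPM in batch 1 and 24.9 CPM in batch 2 at day 3, and 2.54 and 1.17 CPM at day 9. In the libraries labelled 3AKO it had 30.2 and 14 CPM at day 3, and 13.9 and 6.97 CPM in 3AKO at day 9. In those labelled 3BKO it had 16.4 and 23.9 CPM at day 3, and 1.57 and 4.18 CPM in 3BKO at day 9. The lowest day 3 library (14 CPM) was just above the highest day 9 library (13.9 CPM), both with the label 3AKO, so the days were apart by less than counting error. In WT the level was 10.9-fold lower at day 9 (8.46 to 14.1), a log2 ratio of -2.94 with -2.61 in batch 1 and -3.58 in batch 2. At day 9 the 3AKO level was 5.33-fold that of WT (4.09 to 7.02), a log2 ratio of 1.97 with 2.08 and 1.88 in the batches. This difference does not count as a call, because Nefl reached the limit of a read in 20% of cells in 1 batch only. The share of thinned cells with a Nefl read at day 9 was 5.62% for WT (1.85 to 12.6%), 19.3% for 3AKO (11.7 to 29.1%) and 2.99% for 3BKO (0.364 to 10.4%). In each 3BKO library at day 9, all Nefl reads came from 1 cell.

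Nefm, the medium subunit, had few reads anywhere. It had 8.89 and 1.42 CPM in WT at day 3 and 4.15 and 0.92 CPM in WT at day 9. In 3AKO at day 9 it had 1.65 and 0 CPM, and in 3BKO 3.56 and 2.03 CPM, the latter from 1 cell in each library. Its thinned share was at most 11.1% of the cells of a library, and in no library did it reach the 20% limit. Of the WT day 3 cells, 4 had a read of both Nefl and Nefm after thinning, 21 of Nefl alone and 3 of Nefm alone, and at day 9 none of 89 WT cells had both, with an exact upper limit of 4.06%.

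Stmn2, the growth cone stathmin, had the most reads of the members in 5 of the 6 groups on the CPM scale, Tubb3 being above it in 3BKO at day 9 (162 against 149 CPM). Its library values ran from 149 CPM over a median of 245 CPM to 283 CPM at day 3, and from 60.9 CPM over 199 CPM to 269 CPM at day 9. At day 9 it had 269 and 152 CPM in WT, 199 and 198 CPM in 3AKO, and 251 and 60.9 CPM in 3BKO, for batch 1 and batch 2. The lowest value belonged to the deep 3BKO library, and in batch 1 3BKO and WT were close, with a log2 ratio of -0.10, against -1.30 in batch 2. The WT log2 ratio of day 9 to day 3 was 0.19, while the thinned share of cells with a read was 88.6% at day 3 (79.5 to 94.7%) and 70.8% at day 9 (60.2 to 79.9%). Fewer WT cells with a read at day 9 thus went with a summed level close to that of day 3. Under other processing the WT log2 ratio ran from -0.02 to 0.21. WT cells also had fewer genes with a read at day 9, at a median of 5652 against 7267 at day 3. Whether the lower share is particular to Stmn2 was not tested.

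**Figure D3:**
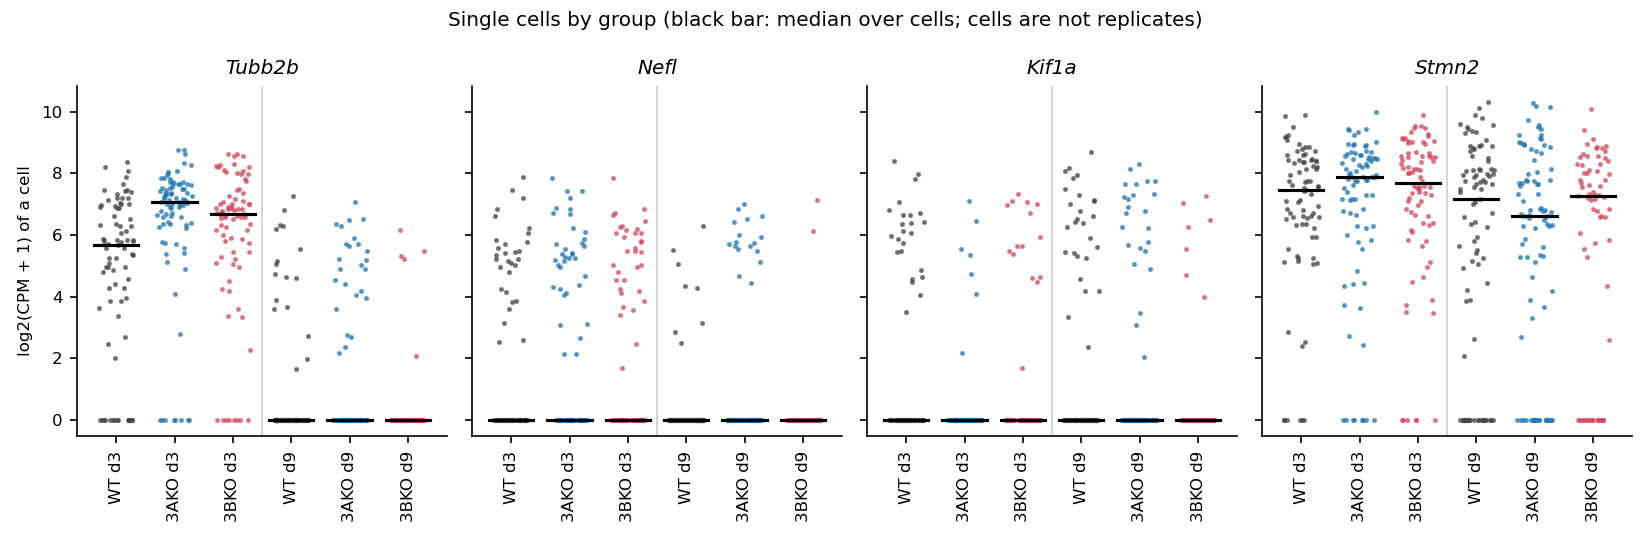
Single-cell level as log2(CPM + 1) (y axis) of Tubb2b, Nefl, Kif1a and Stmn2 in the 6 groups by label (x axis, d = day); each point is a cell, black bars are medians over cells, and cells are not replicates. Tubb2b has a median of 49.9 CPM in WT at day 3 and of 0 CPM at day 9, Nefl and Kif1a have a median of 0 CPM in every group, and Stmn2 keeps a median above 0 CPM in all 6.

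Kif1a, the axonal kinesin, was the member with the largest log2 ratios between genotypes at day 9 among those that met the detection limit of a read in 20% of cells. In WT it had 29.9 CPM in batch 1 and 15.4 CPM in batch 2 at day 3, and 36.6 and 30.95 CPM at day 9. At day 9 it had 33.8 and 27.1 CPM in 3AKO, but 10.5 and 1.78 CPM in 3BKO. Both 3BKO libraries lay below all 4 libraries of WT and 3AKO at that day. The share of all genes with such an order was not counted. Over both batches 3BKO was 5.96-fold lower than WT (5.08 to 7.02), a log2 ratio of -2.39, with -1.71 in batch 1 and -3.52 in batch 2. Against 3AKO it was 5.34-fold lower (4.52 to 6.33), with a log2 ratio of -2.23, -1.60 in batch 1 and -3.33 in batch 2. Leaving out the deep batch 2 library leaves the batch 1 ratios, which are past the limit of 1 in size in both comparisons. 3AKO and WT had a log2 ratio of -0.15 (-0.11 and -0.19). 

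The cells showed the same order. A Kif1a read was found in 8.96% of thinned 3BKO cells at day 9 (3.36 to 18.5%), against 26.97% in WT (18.1 to 37.4%) and 25.0% in 3AKO (16.4 to 35.4%). The interval of 3BKO overlapped those of WT and 3AKO. In batch 2 of 3BKO all 29 reads were in 1 of 21 cells. Without the cell holding most Kif1a reads in each group and batch, 3BKO over WT came to a log2 ratio of -2.62. At day 3 Kif1a had 5.77 CPM in the batch 1 library labelled 3AKO, 3.22 CPM in the batch 2 library labelled 3AKO, 19.4 CPM in the batch 1 library labelled 3BKO and 5.27 CPM in the batch 2 library labelled 3BKO. All 4 were below WT of the same batch, with log2 ratios of -2.19, -1.95, -0.60 and -1.38 in that order. These libraries sat on the 2 plates whose batch 2 labels the deleted genes contradict, so the batch 2 values are assigned to no mutant here.

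DNMT3A and DNMT3B add methyl groups to cytosines followed by guanine, and the start regions of Kif1a and Tubb3 are shown for their CG content. The 250 bases before the start of Kif1a (RefSeq, GRCm38.p6, minus strand, chr1:93101875-93102124) and of Tubb3 (plus strand, chr8:123411303-123411552), a member that was not low in 3BKO, are given 5′ to 3′ with every CG in capitals.
Kif1a: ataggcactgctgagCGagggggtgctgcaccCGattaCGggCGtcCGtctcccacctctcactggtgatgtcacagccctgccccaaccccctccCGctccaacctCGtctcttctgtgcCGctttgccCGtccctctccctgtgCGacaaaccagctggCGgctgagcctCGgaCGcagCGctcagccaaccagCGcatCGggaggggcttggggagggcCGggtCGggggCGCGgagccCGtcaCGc
Tubb3: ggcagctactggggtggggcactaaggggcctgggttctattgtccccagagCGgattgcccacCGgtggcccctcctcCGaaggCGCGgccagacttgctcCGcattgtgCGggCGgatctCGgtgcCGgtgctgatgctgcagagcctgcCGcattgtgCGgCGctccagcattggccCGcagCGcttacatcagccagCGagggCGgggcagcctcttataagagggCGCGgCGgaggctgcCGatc
The Kif1a stretch holds 22 CG and the Tubb3 stretch 21. Over the full windows of 300 bases, which run past the start, the counts were 24 for this Kif1a start, 1 for a second Kif1a start, 26 for Tubb3, 25 for Tubb2a, 37 for Map2 and 3 for each of 2 Dcx starts, against a median of 7 in 32851 promoters. Both printed stretches are thus rich in CG, and a CG count alone does not separate Kif1a from Tubb3. Methylation of these regions was not analysed here. The letters CAGCACC, from the element bound by the repressor REST, occurred on either strand in the windows of Kif1a, Tubb3 and Tubb2a and in 7.14% of all promoters, and GGACAGC, from its other end, in those of Map2 and Tubb3 and in 6.56% of all promoters.

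Map2 and Dcx, which mark postmitotic neurons, were nearly absent. Map2 had 0.24 to 2.11 CPM in the day 3 libraries and 0 to 2.76 CPM at day 9, and its thinned share was at most 8% of a library. In 3BKO at day 9 it had 0 reads in both libraries, which in batch 2 is at least 15.0-fold lower than WT and in batch 1 at least 8.05-fold lower than 3AKO, against a floor of 3 reads. WT batch 1 itself had 1 Map2 read, and 3AKO batch 2 had 0. The bounds cover counting error only, and over all libraries Map2 had a read in 28 cells. Dcx had 16 reads in all, 15 of them in 1 cell of 3AKO batch 2 at day 9 and 1 in a WT cell. In the kept cells of day 3 it had 0 reads. At this depth no difference in Dcx between groups was detectable.

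Ncam1, the adhesion molecule, was uneven among cells. Its lowest, median and highest library values were 5.32, 16.9 and 68.3 CPM at day 3, and 7.77, 15.0 and 21.9 CPM at day 9. The highest library, labelled 3AKO in batch 2 of day 3, drew 68.2% of its Ncam1 reads from 1 cell, and the batch 1 library labelled 3BKO (41.5 CPM) drew 56.8% from 1 cell. At day 9 Ncam1 had 13.9 and 9.96 CPM in WT, 15.98 and 7.77 CPM in 3AKO, and 21.9 and 19.6 CPM in 3BKO. Both 3BKO libraries were above all 4 others, an order that was not counted over all genes. The log2 ratio to WT was 0.68 (0.62 and 0.91), below the size limit of 1. The share of thinned cells with a read was 17.98% for WT (10.6 to 27.5%), with 20.5% for 3AKO (12.6 to 30.4%) and 20.9% for 3BKO (11.9 to 32.6%), and the intervals overlapped.

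**Figure D4:**
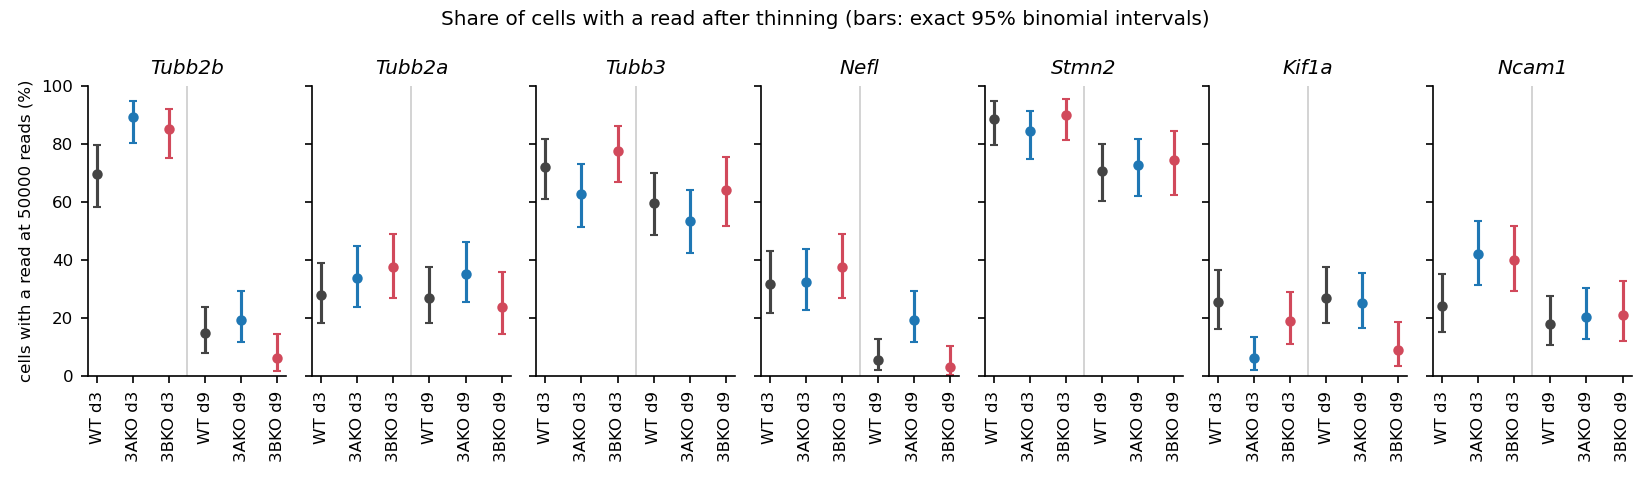
Share of cells with at least 1 read after every cell was thinned to 50000 reads (y axis, %) for 7 members in the 6 groups by label (x axis, d = day); points are shares and bars exact 95% binomial intervals. The share is lower at day 9 for Tubb2b (14.6% against 69.6% in WT) and Nefl (5.62% against 31.6% in WT), and at day 9 Kif1a is at 8.96% in 3BKO against 26.97% in WT and 25.0% in 3AKO. The Kif1a intervals of the day 9 groups overlap.

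Across members, a gene was called when its log2 ratio on log2(CPM + 1) had the same sign and a size of at least 1 in both batches, among genes read in 20% or more of the cells of at least 1 of the compared groups, in batch 1 as in batch 2. For WT day 9 against day 3, 7 of the 10 members met the detection limit, Tubb2b and Nefl were called lower and none higher, against 2.19% lower and 5.25% higher of 10162 genes. That count follows from how the members were chosen. Over 12627 genes, 1.28% were lower in all 6 day 9 libraries than in all 6 day 3 libraries, as Tubb2b and Nefl were, and 2.44% were higher, which held for none of the 7 members that met the limit. At day 9, 6 members met the limit for 3AKO against WT and none was called, against 1.59% lower and 1.07% higher of 9201 genes. For 3BKO against WT, 5 members met it and Kif1a was called lower, against 4.98% lower and 2.86% higher of 9235 genes. For 3BKO against 3AKO, 5 members met it and Kif1a was again called lower, against 4.91% lower and 4.56% higher of 9152 genes. The comparisons share samples, and both Kif1a calls rest on the same 3BKO libraries. In batch 1 alone, 3BKO against 3AKO would add Nefl as lower and Tubb3 as higher, and in batch 2 alone Stmn2 as lower and Ncam1 as higher.

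The median log2 ratio of the members that met the limit was 0.19 for WT day 9 against day 3, -0.08 for 3AKO against WT at day 9, 0.16 for 3BKO against WT and -0.28 for 3BKO against 3AKO. Over all genes tested these medians were 0.19, -0.10, -0.08 and -0.0014.

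**Figure D5:**
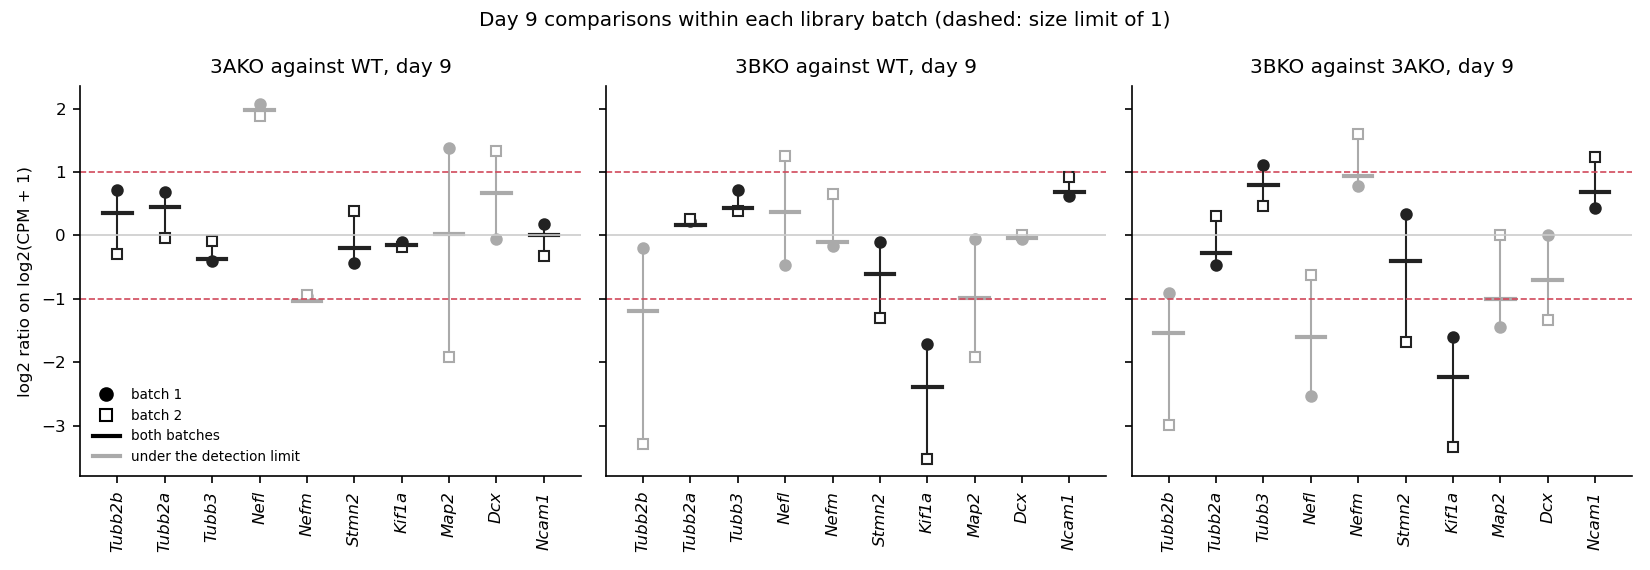
Log2 ratio on log2(CPM + 1) (y axis) of each of the 10 genes (x axis) in the 3 day 9 comparisons; circles are batch 1, squares batch 2, bars both batches, grey marks genes under the detection limit, and dashed lines mark a size of 1. Kif1a is past -1 in both batches against WT (-1.71 and -3.52) and against 3AKO (-1.60 and -3.33), and Nefl is past 1 in both batches of 3AKO against WT (2.08 and 1.88) but under the detection limit.

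The mutant comparisons that use day 3 describe the labels only, since the batch 2 labels are in doubt there. For the label 3AKO, day 9 against day 3, 7 members met the limit, Tubb2b was called lower and Kif1a higher, against 3.11% lower and 2.57% higher of 9945 genes. For the label 3BKO, 6 met it and Tubb2b and Nefl were called lower, against 5.59% lower and 6.77% higher of 10042 genes. At day 3, 7 members met the limit for the label 3AKO against WT and Kif1a was called lower, against 0.347% lower and 0.869% higher of 10362 genes. For the label 3BKO against WT at day 3, 7 met it and none was called, against 0.42% lower and 0.664% higher of 10236 genes. These comparisons share the WT or the day 9 samples with those above.

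The genes that work with the members were read from 6 lists holding 115 further genes. Of 17 other tubulins, 10 met the limit for WT day 9 against day 3 and none was called (median log2 ratio -0.08). For 3AKO against WT at day 9, 10 met it and the centriolar epsilon-tubulin Tube1 (1.20) and the alpha-tubulin Tuba3a (1.76) were called higher. Of 9 for 3BKO against WT none was called (median -0.33), and against 3AKO Tube1 (-2.07) and Tuba3a (-1.56) were called lower. Of 18 tubulin folding and modifying genes, 15 met the limit between the WT days, and Svbp (log2 ratio 1.71), partner of the tubulin detyrosinating vasohibins, and Atat1 (1.79), the tubulin acetyltransferase, were called higher at day 9. None of 13 was called in either mutant against WT at day 9.

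Intermediate filaments had the lowest list median between the WT days. Of 13 genes, 8 met the limit between the WT days, and the nuclear lamin Lmnb1 (134 CPM at day 3, 21.4 CPM at day 9), the heavy neurofilament subunit Nefh (20.04 CPM at day 3, 3.50 CPM at day 9) and the neuronal filament Ina (162 and 51.5 CPM) were called lower at day 9, with a list median of -1.24 on the log2 scale against 0.19 for all genes. For 3BKO against WT at day 9, 6 met the limit, and Vim, the filament of mesenchymal and progenitor cells, was called lower, at 9.64 CPM against 233 CPM (log2 ratio -4.46, with -4.03 and -4.81 in the batches). For 3AKO against WT, 6 met it and the epithelial keratin Krt18 was called higher, at 45.7 CPM against 6.98 CPM. For 3BKO against 3AKO, 8 met it, and Vim (log2 ratio -3.47) and Krt18 (-2.09) were called lower.

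Of 24 stathmins and microtubule-associated proteins, 15 met the limit for 3BKO against WT at day 9. The collapsin response mediators Dpysl2 (log2 ratio -2.72) and Crmp1 (-1.78), the stathmin Stmn3 (-2.41) and Map1b (-2.03), which binds microtubules in growing axons, were called lower, while Dpysl4 (1.79) and Map7 (2.27) were called higher. Against 3AKO the same comparison of 15 genes called Stmn3, Crmp1, Dpysl2 and Map1b lower (-2.49, -2.19, -2.02 and -1.72) and Map7 higher (2.18). For 3AKO against WT, 13 met the limit and Dpysl3 (1.14) was called higher. Between the WT days 18 met it, and Map1a (-1.90) and Map7 (-1.61) were called lower and Dpysl2 (2.64) higher. The list medians were -0.10 for 3BKO against WT, -0.15 for 3BKO against 3AKO, -0.03 for 3AKO against WT and 0.13 between the WT days, each near that of all genes.

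Of 21 kinesins and dynein genes other than Kif1a, 14 met the limit for each mutant against WT at day 9 and none was called, with medians of -0.32 for 3AKO and -0.10 for 3BKO. Between the WT days the dynein chain Dync1i2 (1.13) was called higher among 16 genes. For 3BKO against 3AKO, Kif21a (-1.48) and Kif3a (-0.98 over both batches, past -1 in each) were called lower and Dctn1 (1.10) higher among 15. Of 22 neural adhesion genes few were detected: 4 met the limit for 3BKO against WT, of which Marcks (-1.62) was called lower, and 6 for 3BKO against 3AKO, of which Cdh2 (0 CPM against 12.4 CPM) and Nrcam (0.0991 CPM against 11.1 CPM), both adhesion molecules of neural cells, were called lower. For 3AKO against WT none of 6 was called, and between the WT days none of 4.

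The members were also counted per cell. After thinning, a WT cell had a read of a median of 3 members at day 3 and of 2 at day 9, and the median was 2.5 in 3AKO and 2 in 3BKO at day 9. At least 5 members were found in 21 of 79 WT cells at day 3 and in 4 of 89 at day 9, when 4 of 88 cells of 3AKO and 1 of 67 of 3BKO held as many. The cells labelled 3AKO and 3BKO at day 3 with at least 5 members were 20 of 83 and 24 of 80. Cells without a read of any member numbered 1 for WT at day 3 and 7 at day 9, with 6 for either mutant at day 9. These counts include Tubb2b and Nefl, so their difference between the WT days follows in part from how the members were chosen. Before thinning, kept WT cells also had fewer genes with a read at day 9, at a median of 5652 against 7267 at day 3.

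The label neuronal was checked against 20 further neuron markers. Of these, 12 had a read in WT at either day, and at day 9 the number was 15 for 3AKO and 8 for 3BKO, while Neurod4, Neurog2, Nhlh2 and Scg2 had none in any group. Their summed level was 190.2 CPM in WT at day 3 and 87.2, 136 and 57.9 CPM in WT, 3AKO and 3BKO at day 9, of which Ina alone held 162, 51.5, 84.4 and 30.3 CPM. In batch 1 alone the day 9 sums were 97.9 CPM for WT, 152 CPM for 3AKO and 93.7 CPM for 3BKO, so WT and 3BKO were close without the deep library (27.02 CPM). A read in at least 3 of the 20 markers was found in 6 of 79 WT cells at day 3 and in 4 of 89 at day 9, when 8 of 88 cells of 3AKO and 1 of 67 of 3BKO had one. By contrast, at least 3 of 9 epiblast markers had a read in 79 of 79 WT cells at day 3 and in 83 of 89, 78 of 88 and 67 of 67 cells of these groups at day 9. Few cells thus had reads of several neuron markers, and the members are called here by name and not as evidence of neurons. Of 12 neural progenitor markers, the number with a read at day 9 was 10 for WT, 12 for 3AKO and 6 for 3BKO, with Sox1, Nes, Fabp7, Hes5, Zic1 and Pou3f2 at 0 in 3BKO. They summed to 46.6 CPM in WT (57.02 and 26.6 CPM in the batches) and 74.7 CPM in 3AKO (84.2 and 61.4 CPM). The sum was lowest in 3BKO, at 10.9 CPM (11.5 and 10.4 CPM). A read in at least 3 of the 12 was found in 2 of 89 cells of WT, 4 of 88 of 3AKO and 0 of 67 of 3BKO. For 3BKO against WT 0 of the 12 met the detection limit, and for 3AKO against WT 1 did, so the sums rest on genes read in few cells. Sox2 and Otx2, transcription factors of epiblast and neural ectoderm, were higher in 3BKO than in WT in both batches at day 9. Their levels were 82.3 against 42.99 CPM and 231 against 133 CPM, and neither was called. Among the other regulators read, Rest was also higher in both batches without a call, at 409 against 318 CPM. Sox11 was called lower, at 3.27 against 16.5 CPM, with 90.9% of its 3BKO reads in 1 cell. Sox4 was lower in both batches without a call, at 8.29 against 19.6 CPM. In batch 1 it was at 13.2 CPM in 3BKO against 15.8 CPM in WT, and in batch 2 at 4.06 against 26.9 CPM. Rcor1 and Pou3f1 did not keep the same sign in both batches. The part of neural progenitors in the members' values was not tested.

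Across the 12 libraries, the genes whose log2(CPM + 1) was most like that of a member were taken from 10722 genes by Pearson's r, as a description, since the libraries share plates and batches. For Tubb2b these were Cpt1a (r = 0.97), which brings fatty acids into mitochondria, the unconventional myosin Myo10 (0.96) and the ETS transcription factor Etv4 (0.96). Tubb2a was most like Rufy3 (0.89), Prdm1 (0.87) and Hs6st1 (0.82), and Tubb3 most like Dhx32, Cchcr1 and Acacb (each 0.90). For Nefl they were Rasd2 (0.91), Kctd3 (0.90) and Ahcy (0.90), and for Stmn2 Safb2, Impa2 and Ptprf (each 0.93). Kif1a was most like the kinase gene Pim2 (0.93), Exosc7 (0.91) and Klhdc2 (0.90), and Ncam1 most like Rpph1 (0.93), Rprl3 (0.92) and Git1 (0.91). Nefm, Map2 and Dcx were under the detection limit in all libraries. Among the members themselves, the highest r was that of Tubb2b with Nefl (0.77), followed by Tubb2b with Stmn2 (0.67) and Tubb3 with Ncam1 (0.67), while that of Tubb2b with Tubb2a was -0.33.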

How the data were processed

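The authors deposited 1 table of read counts per gene name and cell. Per the submitters' processing notes and the methods of the study, single-end reads were trimmed by Trim Galore 0.5.0, aligned to mm10/GRCm38 with STAR 2.7.1a and, where uniquely mapped, counted over GENCODE exons with featureCounts 1.6.1. The deposited counts are raw. Columns without a sample (26) were not used. Cells with under 50000 reads, under 2000 genes or over 50% mitochondrial reads were removed. Doublets were not called because each well received 1 sorted cell, and no 2 cells held identical counts. Reads were added up by group and by library and scaled to CPM, or to RPKM with merged exon lengths of GENCODE vM21, in which 97.0% of gene names were found. Intervals were exact Poisson, conditional binomial for folds and Clopper-Pearson for shares, all at 95%, computed with Python 3.11.15, NumPy 2.4.6, pandas 2.3.3 and SciPy 1.17.1. The reads carry no molecular identifiers and are not independent molecules. Ratios on log2(CPM + 1) understate the differences of low genes. The calling script was tested on simulated data. The 10 members and the gene lists were chosen with earlier results of these data known. All members were named, as well as the 3 genes most like each detected member. Of the lists, the genes called between the WT days or between genotypes at day 9 were named. Those called in the comparisons of mutant labels that use day 3 were not. Alternatives were no cell filter or a stricter one, either batch alone, mean single-cell CPM, thinning, another denominator, TMM factors (edgeR 4.0.16), median-ratio factors (DESeq2 1.42.0), pseudocounts of 0.1 and 10 CPM, detection in 10% or 40% of cells or no limit, and leaving out the cell with most reads of a gene.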

Additional observations from a re-analysis of the deposited data

Results flagged for a closer look

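Among members that met the detection limit in both contrasts, 4 cases had one sign in both batches of one contrast and the opposite sign in both batches of another. The differences were not tested. Kif1a fell outside this count because it missed the limit under the label 3BKO, where its log2 ratio of day 9 to day 3 was -1.04, against 0.53 in WT and 2.47 under the label 3AKO. Tubb3 at day 9, as a log2 ratio to WT, stood at -0.37 for 3AKO and at 0.43 for 3BKO, a difference of 0.79. Ncam1 had a log2 ratio of day 9 to day 3 of 0.32 in WT and -1.56 under the label 3AKO, a difference of -1.87, and 68.2% of the Ncam1 reads in the day 3 batch 2 library of that label came from 1 cell. Stmn2 had a log2 ratio of day 9 to day 3 of 0.19 in WT and -0.84 under the label 3BKO, a difference of -1.03. The values for batch 1 and batch 2 were 0.17 and 0.02 in WT, and -0.17 and -2.03 under that label. The WT ratio of Stmn2 changed sign in 2 of 10 alternatives. Tubb3 had a log2 ratio of day 9 to day 3 of -0.64 under the label 3AKO and 0.14 under the label 3BKO, a difference of 0.78. The last 3 rest on day 3 libraries whose batch 2 mutant labels are in doubt.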

How the results depend on the processing

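No paired analysis was possible because each group was 1 sample and its cells carry no number that pairs them across groups. The counts of called members rest on the detection limit more than on scaling: with TMM or median-ratio factors all 8 counts stayed within 1.5 times. With detection in 40% of cells, WT day 9 against day 3 called 1 member (Nefl lost), 3BKO against WT and against 3AKO at day 9 called 0 (Kif1a lost), day 9 against day 3 called 1 for either mutant label, and 3AKO against WT at day 3 called 0. With detection in 10% of cells, with no limit, or in batch 1 alone, 3AKO against WT at day 9 called 1 (Nefl, higher). In batch 2 alone, 3BKO against WT at day 9 called 3 (Tubb2b, Stmn2 and Kif1a), a set that rests on the deep library, and 3BKO against 3AKO called 3 in either batch alone. At day 3, 3AKO against WT called 2 with the stricter cell filter, 3 in batch 1 alone, 2 in batch 2 alone, 0 after thinning and 0 with a pseudocount of 10 CPM, and 3BKO against WT called 2 in either batch alone. No causes were tested. Of 500 alternative log2 ratios of members, 388 stayed within the counting interval of the main value and 112 did not, and none of those past the size limit changed sign. The log2 ratio of Kif1a in 3BKO against WT at day 9 ran from -2.62 to -1.50. Reads of genes in few cells limit Nefm, Map2 and Dcx.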
